A study of Homo sapiens with 6 samples.

Results

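The K1 cell line, established from a papillary thyroid carcinoma, was profiled by mRNA-seq in 3 libraries transfected with a negative control siRNA (NC) and 3 transfected with an siRNA against the long transcript of a noncoding RNA (si-NEAT1_2), 6 libraries in all. All came from the same cell line, and beside the library tables the authors deposited 1 group table with a single value per gene for NC and one for si-NEAT1_2. The values described here are those of the 3 NC libraries set against the NC column of the group table. The labels number the libraries as repeats and do not say whether they came from separate cultures.

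Expression was in FPKM, fragments scaled to gene length and to the number of fragments mapped. Of 19684 Ensembl gene identifiers, 18785 lay on chromosomes 1 to 22 and were compared, after 886 genes of X and Y and 13 mitochondrial genes were left out. A gene passed the filter where the average of the library mean and the column was at least 1 FPKM, and 10933 genes did. The column was multiplied by 1.16 so that the median log2 ratio was 0, and every column value of the NC comparison given in FPKM below is scaled in this way unless called deposited. A gene was called separated where the column lay at least 4-fold above the highest or below the lowest of the 3 libraries, on log2(FPKM + 0.1). Differences are given as libraries minus column on that scale, which understates the change of low genes. Since the column is 1 value per gene without replicates and the tables were made separately, no test was possible and the range of the 3 libraries was the only measure of spread.

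A cell type is read from the genes it transcribes. Keratins form the intermediate filaments of epithelial cells, collagens and matricellular proteins the matrix around them, and cytokines, antigen presentation molecules and interferon-induced proteins the immune programme. Thyroid follicular cells are marked by PAX8, NKX2-1 and FOXE1, transcription factors that drive thyroglobulin (TG) and the thyrotropin receptor (TSHR). Carcinoma lines often lose the later markers and keep some of the factors.

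The total count per NC library ranged from 22798631 to 27066025, against 17678761 in the NC column. Every column value above 0, 16183 in number, was a whole multiple of the rounding unit of 0.01 FPKM divided by 3 (within 1e-05), while 32.6% were multiples of 0.01 itself; all library values were multiples of 0.01. Only 360 of 14972 autosomal column values above 0 (2.40%) lay within 0.005 FPKM of the mean of the 3 libraries. Counts per FPKM, which reflect the gene length used, deviated over 1.5-fold in 63 of 9512 genes between column and libraries, and in 65 to 78 between one NC library and the others. The libraries held 838 unannotated loci and the group column 638. Which libraries went into the column is not given in the sources used here.

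Between libraries and column, 332 genes were separated with the libraries higher (3.04% of those passing) and 632 with the column higher (5.78%), while 1597 genes (14.6%) lay inside the range of the 3 libraries. When each NC library was set in the same way against the other NC libraries, 9, 3 and 6 genes were separated (0.0847%, 0.0282% and 0.0563% for replicates 1, 2 and 3). Each si-NEAT1_2 library against the 3 NC libraries gave 1, 8 and 4 (0.00938%, 0.0757% and 0.0376%). The correlation of log2 values across genes, which are not independent replicates, was 0.771 between libraries and column and between 0.985 and 0.990 between one NC library and the others. The split depended on the scaling. With the median of 44 cytosolic ribosomal protein genes set to 0, which moved the median of all genes by 0.71, 641 genes were higher in the libraries and 336 in the column; as deposited, without scaling, the median moved by 0.22 and the counts were 393 and 524. Close to the 4-fold bound, the column lay 4.05-fold below the lowest library in CCDC80 and 4.02-fold above the highest in RAB20, both separated, and 3.99-fold below in HSPB8 and 3.98-fold above in GRINA, both not.

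**Figure D1:**
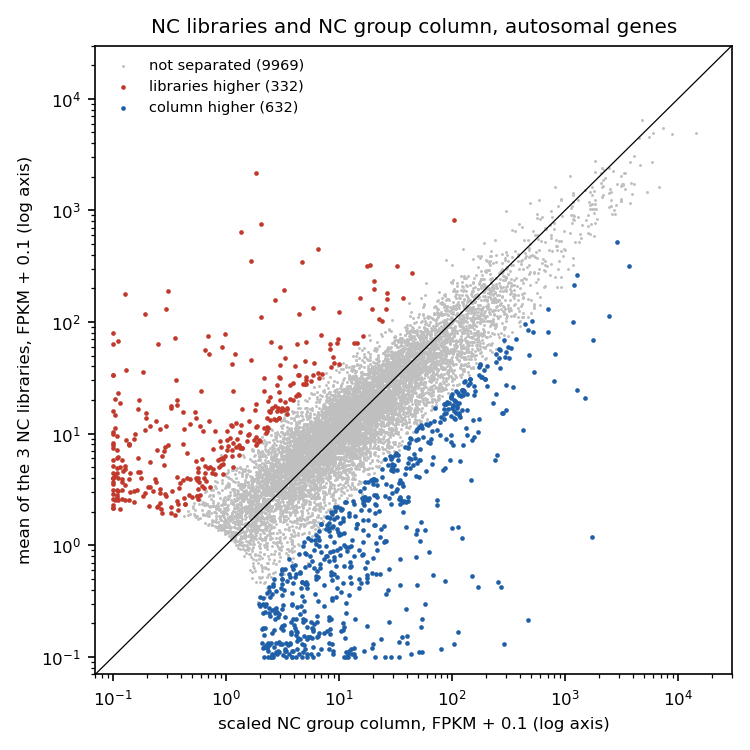
Each point is 1 of the 10933 autosomal genes that passed the filter, with the scaled NC group column on the x axis and the mean of the 3 NC libraries on the y axis, both as FPKM + 0.1 on log axes, and the line marking equal values. The 332 genes higher in the libraries and the 632 higher in the column spread along both edges, down to values near 0 on one side.

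The same rule was applied to the 3 si-NEAT1_2 libraries and the si-NEAT1_2 column, whose values the NC comparison did not use. Both columns were deposited together and the libraries behind them are not given, so the comparisons are not known to be independent. The rule separated 427 genes with the libraries higher (4% of 10680) and 476 with the column higher (4.46%). Of the genes separated in NC, 264 with the libraries higher were separated in the same direction there (79.5% of the NC list and 61.8% of the si-NEAT1_2 list), as were 328 with the column higher (51.9% and 68.9%). None of the former and 1 of the latter, MVK, was separated in the opposite direction; MVK was named after its values were seen.

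The genes furthest above the column in the libraries included keratins, a cell cycle inhibitor and receptors. CDKN2A, an inhibitor of the cyclin-dependent kinases of G1 phase (chromosome 9, 21967753 to 21995301, minus strand), had 185, 159 and 187 FPKM in the NC libraries and 0.0271 in the column, where it rested on an average of 0.333 counts. KRT81, a hair keratin, had 2205, 1896 and 2367 FPKM against 1.76, a difference of 10.18, and is nearly identical to KRT86, so that its reads may be split between them. KRT7, a keratin of simple epithelia, had 765, 730 and 776 FPKM against 1.93, a difference of 8.54. Both keratins were thus abundant in every library, within narrow ranges, and below 2 FPKM in the column.

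GFRA1, the GDNF co-receptor that signals through RET, had 88.2, 74.4 and 75.6 FPKM in the libraries and 0 in the column, so that it was at least 1852-fold higher in the libraries against a floor of 3 counts in the column. Its partner RET, a receptor tyrosine kinase, had 7.37, 6.82 and 6.89 FPKM against 0.147, a difference of 4.85. Their ligand GDNF was on the other side, at 0.01, 0.07 and 0.13 FPKM in the libraries and 10.3 in the column. HAVCR1, a phosphatidylserine receptor of injured kidney tubules, had 63.9, 71.1 and 55.8 FPKM in the libraries and 0 in the column, at least 463-fold higher. SFN, the epithelial protein stratifin, had 195, 163 and 208 FPKM against 0.205, a difference of 9.27. MTRNR2L12 had 503, 717 and 719 FPKM against 1.25 and resembles mitochondrial ribosomal RNA, so that its reads are uncertain. The others of the leading 10 were at or below 3 counts in the column. SCARA3, a scavenger receptor-like protein, had 111 to 128 FPKM in the libraries and 0.093 in the column, CYP24A1, which inactivates vitamin D, 66.4 to 68.8 against 0.0116, and FXYD2, a subunit of the sodium pump of the kidney, 107 to 147 against 0.198. All 10 were separated in the same direction in the si-NEAT1_2 comparison.

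On the other side, the 10 genes furthest apart included interleukins and other secreted proteins. IL33, a nuclear alarmin, had 0.08, 0 and 0.01 FPKM in the libraries and 288 in the column. CSF3, the granulocyte growth factor, had 0.07, 0.17 and 0.1 FPKM against 468. IL1B, the inflammatory interleukin, had 1.38, 1 and 0.87 FPKM against 1744, a difference of -10.53. These genes were near silent in each of the 3 libraries and among the more abundant in the column. ANPEP, an aminopeptidase of the cell surface, had 0.01 to 0.14 FPKM in the libraries and 113 in the column. CTHRC1, a secreted matrix protein, had 0.18 to 0.56 against 269, and PTGES, the inducible prostaglandin E synthase, 0.16 to 0.52 against 257. No library had more than 3 counts of CD70 (at most 0.05 FPKM against 103), a ligand of T cell costimulation, of the transcription factor TOX2 (at most 0.03 against 79.9), of the transport adaptor FEZ1 (at most 0.03 against 54.2) or of the secreted protein SMOC1 (at most 0.02 against 51). All 10 were also separated with the column higher in the si-NEAT1_2 comparison.

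**Figure D2:**
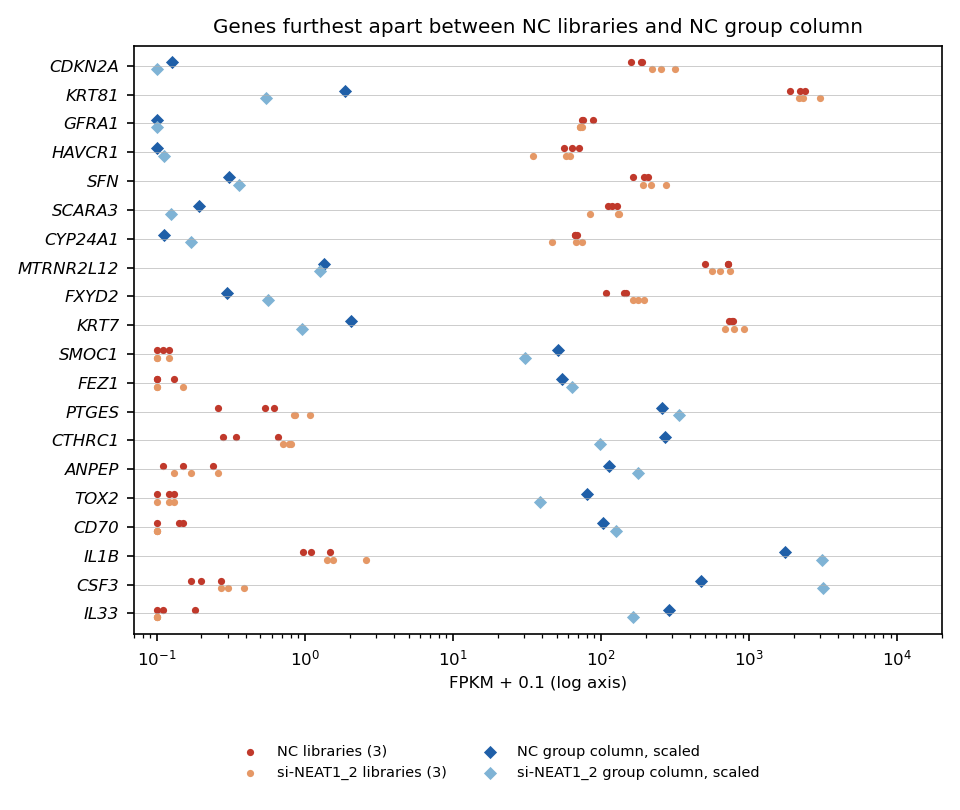
The 10 genes furthest apart in each direction among those with at least 10 FPKM on the higher side, with FPKM + 0.1 on a log x axis. Circles are single libraries, 3 NC and 3 si-NEAT1_2 per gene, and diamonds the scaled group columns; circles of both groups lie together, and both columns lie apart from them on the same side.

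Lineage genes were separated more often than genes in general, at 17 of the 36 that passed (47.2%, against 8.82% of all genes), with 10 higher in the libraries and 7 in the column. This share is read on genes with values on at least one side, since 80 of the 116 listed genes were too low on both to be counted. The lists were chosen with earlier results of these data known, so a share above that of all genes may follow from the choice. Of the 18 thyroid genes, 5 passed. PAX8 had 134, 129 and 134 FPKM in the libraries and 384 in the column, a difference of -1.53, and FOXE1 had 8.01, 7.51 and 6.77 against 13.1, a difference of -0.81; neither was separated. TG was the one thyroid gene separated, at 2.8, 2.48 and 2.84 FPKM in the libraries and 0.368 in the column, a difference of 2.58. The other members that passed were not separated. Over all 18 thyroid genes the summed deposited level was 149.9 to 156.3 FPKM per library and 361.1 in the column. TSHR and NKX2-1 were below the filter. TSHR had 0.03 to 0.04 FPKM in the libraries and 0 in the column, and NKX2-1 0 to 0.02 and 0. Of the markers of the labelled thyroid origin, PAX8, which kidney cells also express, and FOXE1 were thus detected on both sides, while NKX2-1, TSHR and the iodide transporter SLC5A5, at no more than 0.02 FPKM for the last, were close to absent.

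Among epithelial genes, 13 of 35 passed, 5 separated with the libraries higher and 3 with the column higher, at a median difference of 1.06. The libraries were higher in KRT81 and KRT7, given above, and in MAL2, an apical transport protein, at 70.7, 89.3 and 72.7 FPKM against 0.884, a difference of 6.30. KRT80 was at 29.9 to 38.3 FPKM against 4.26 (difference 2.96) and the epithelial transcription factor ELF3 at 5.43 to 6.25 against 0.779 (2.74). KRT19, another keratin of simple epithelia, went the other way, at 0.37, 0.38 and 0.26 FPKM in the libraries and 34.6 in the column, a difference of -6.31. KRT15 was also higher in the column, at 5.06 to 5.39 FPKM in the libraries against 27.1 (-2.37). The keratin pattern thus differed gene by gene, and the abundant pair KRT8 (1149 to 1316 FPKM against 594) and KRT18 (391 to 441 against 300) was not separated. In the si-NEAT1_2 comparison KRT15 was not separated and its difference was 0.15. EPCAM, at 1.35, 1.73 and 1.44 FPKM against 0.171, was below the filter, as was CDH1 (E-cadherin) at 0.13, 0.23 and 0.23 against 0.00775, so neither side held much of these 2 defining epithelial proteins.

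Of the mesenchymal genes, 17 of 24 passed, 4 separated with the libraries higher and 3 with the column higher. VIM, the filament protein vimentin, was at 2749, 2674 and 2713 FPKM in the libraries and 3761 in the column, a difference of -0.47, and was not separated. TAGLN, an actin-binding protein of smooth muscle, had 458, 413 and 487 FPKM against 6.37 (difference 6.13), and TPM2, a tropomyosin, 343, 326 and 374 against 4.63 (6.20). MCAM, an adhesion molecule, had 56, 48.8 and 50.9 FPKM against 1.1 (5.44). These 3 genes were higher in the libraries, while THY1, a surface marker of fibroblasts, was higher in the column, at 0.28, 0.47 and 0.57 FPKM against 67.9 (-6.98). The transcription factors TWIST2 (2.16 to 2.92 FPKM against 16.2, difference -2.67) and TWIST1 (0.74 to 1.18 against 5.6, -2.35) were higher in the column, and both fell short of separation in the si-NEAT1_2 comparison, at -2.03 and -1.83. Of 39 HOX genes, which mark position along the body axis, 1 passed, HOXB6, at 0 to 0.02 FPKM against 2.46.

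Markers of other cell types were mostly low on both sides; in bulk RNA, fewer cells of a type and less RNA per cell cannot be told apart. Of 52 melanocyte, blood, endothelial, neuroendocrine, intestinal and hepatocyte markers, 5 passed, 20 were at 0 in the column and 9 at 0 in all 3 libraries, and their summed deposited level was 21.3 to 23.3 FPKM per library and 101.9 in the column. CD68, which many cells outside the blood also express, had 12.4, 11.6 and 13.2 FPKM against 45.7 and was not separated. Higher in the column were TIE1, an endothelial receptor kinase, at 0.99, 0.42 and 0.54 FPKM against 34.5 (difference -5.53), LGR5, the R-spondin receptor, at 0.3, 0.29 and 0.2 against 25.9 (-6.16), and CD14 at 0.18, 0.21 and 0.27 against 6.4 (-4.34). The defining markers of blood and endothelium were near 0 on both sides, with PTPRC (CD45) at no more than 0.05 FPKM, PECAM1 at no more than 0.11, VWF at no more than 0.06 and CDH5 at no more than 0.19.

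Among lists with at least 5 members passing, cytokines and chemokines had the median furthest from 0 where no floor on counts was used. Of 35 members 22 passed, of which 16 were separated with the column higher and 1 with the libraries higher. This was 77.3%, against 8.82% of all genes (5.78% with the column higher). IL33, CSF3, IL18, CXCL6 and CCL20 were near 0 in the libraries and passed the filter only through the column. Such a gene is separated whenever it passes, so the count of 16 was partly fixed in advance. The median difference was -4.41, or -4.43 with values floored at 3 counts. In the si-NEAT1_2 comparison it was -5.56, where 18 and 1 of 25 were separated. The order of the lists in NC depended on the floor. Class II antigen presentation molecules, described below, had a median of -4.19 without it. With values floored at 3 counts their median was -5.00, further from 0 than that of cytokines and chemokines. Chemokines of the CXC family, which attract neutrophils, were higher in the column as neighbours on chromosome 4 (GRCh38, 73740506 to 74099293), where CXCL8, CXCL6, CXCL1, CXCL3 and CXCL2 were consecutive among the genes that passed. CXCL8 had 19.2, 21.9 and 21.6 FPKM in the libraries and 1499 in the column, a difference of -6.16. CXCL1 had 64.2, 68.9 and 71.7 against 1782 (-4.70), CXCL2 4.34, 6.52 and 6.13 against 238 (-5.37) and CXCL3 1.07, 1.22 and 1.54 against 48.8 (-5.15). CXCL6 was listed at 0, 0 and 0.02 against 6.42. CXCL1 and CXCL8 were therefore well expressed in all libraries, and far more abundant in the column. These chemokine genes are similar in sequence, and reads between CXCL1, CXCL2 and CXCL3 may be split.

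Most interleukins and colony-stimulating factors were also higher in the column. IL6 had 47, 48.9 and 58.9 FPKM in the libraries against 819 in the column (difference -3.99), IL1A 4.92, 4.34 and 5.25 against 85.8 (-4.12), and IL11 5.53, 5.41 and 6.32 against 95.3 (-4.03). IL24 had 0.28, 0.45 and 0.3 against 48.7 (-6.78), and CSF2, the factor for granulocytes and macrophages, 6.53, 5.46 and 11.3 against 103 (-3.71). IL18 was at 0 in all 3 libraries and 25.7 FPKM in the column, at least 236-fold higher there against the floor of 3 counts per library. LIF was at 29.8 to 32.1 FPKM against 197 (-2.68) and CCL20 at 0, 0 and 0.05 against 8.12. Not all inflammatory genes were apart. TNF had 9.04, 8.51 and 9.27 FPKM against 6.83 (0.38), CSF1 26.9, 28.6 and 23.4 against 25.2 (0.06), and ICAM1, an adhesion molecule induced by the same stimuli, 8.15, 6.04 and 7.22 against 8.09 (-0.18). RELA, a subunit of the transcription factor NF-kB, had 42.7, 35.1 and 40.7 against 95.1 (-1.27) and was not separated. ICAM1 and RELA were further apart in the si-NEAT1_2 comparison, at -1.88 and -1.59, and not separated there either. IL32 was the one cytokine separated with the libraries higher, at 243, 198 and 262 FPKM against 20.4 (3.52); it was not separated in the si-NEAT1_2 comparison, at 1.80.

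**Figure D3:**
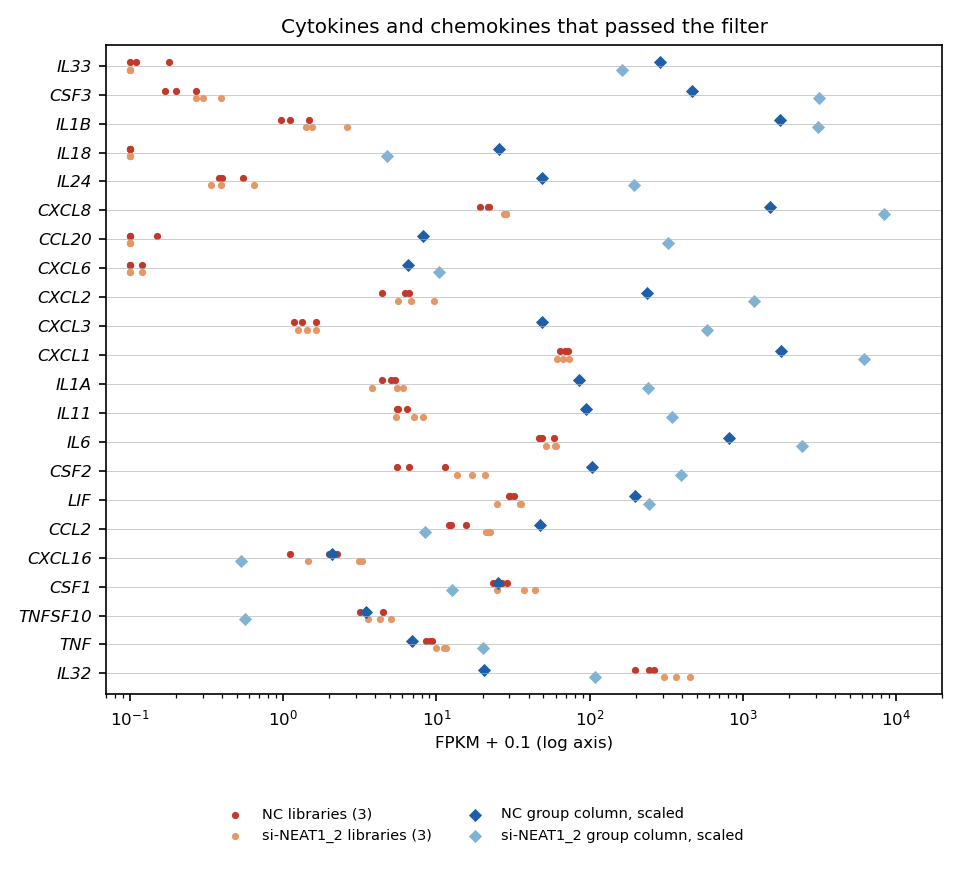
The 22 cytokines and chemokines that passed the filter, ordered by difference, with FPKM + 0.1 on a log x axis; circles are single NC and si-NEAT1_2 libraries and diamonds the scaled group columns. For the 16 genes from IL33 down to LIF both columns lie above all libraries, and for IL32 both lie below.

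Promoter windows of the chemokine genes were read to show what the neighbours share. Windows from 250 bases before to 50 bases after the transcription start (RefSeq, GRCh38.p14) matched 8718 of the 10933 genes by symbol. The letters GGANTTTCC, a form of the NF-kB motif, were found on either strand in 6 of the 13 windows of cytokine and chemokine genes higher in the column, in 1.64% of all 27305 promoters and in 2.24% of the 447 windows of genes higher in the column. This motif was 1 of 13 letter strings searched after the values were seen, some of which overlap it, and a match is a description only. Shown 5′ to 3′ on the strand of each gene, in stretches of 30 bases with the matched letters in capitals, these are the 6.
CXCL1 (chr4:73869304-73869333, plus strand): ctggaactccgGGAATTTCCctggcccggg
CXCL2 (chr4:74099254-74099283, minus strand): ctggagctccgGGAATTTCCctggcccggg
CXCL3 (chr4:74038749-74038778, minus strand): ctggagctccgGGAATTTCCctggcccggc
CXCL6 (chr4:73836578-73836607, plus strand): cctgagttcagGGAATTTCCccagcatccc
CXCL8 (chr4:73740467-73740496, plus strand): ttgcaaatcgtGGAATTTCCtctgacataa
IL6 (chr7:22727117-22727146, plus strand): tatcaaatgtgGGATTTTCCcatgagtctc
The stretches of CXCL1, CXCL2 and CXCL3 are nearly the same, while those of CXCL6, CXCL8 and IL6 share little but the motif. Over all separated genes, promoters poor in CpG (observed over expected below 0.6) made up 38.6% of 236 windows with the libraries higher and 31.3% of 447 with the column higher, against 13.9% of all genes that passed.

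Antigen presentation genes were described by class. Class II molecules, which present extracellular peptides and are usual on immune cells, had 5 of 11 members passing, all 5 separated with the column higher. All but CD74, namely HLA-DPB1, HLA-DPA1, HLA-DRB1 and HLA-DMA, were below 1 FPKM in the libraries and passed the filter only through the column. A gene near 0 in the libraries is separated whenever it passes in this way, so the count of 5 was largely fixed in advance. HLA-DPB1 had 0.09, 0.11 and 0.11 FPKM in the libraries and 27.5 in the column, HLA-DPA1 0.05, 0.05 and 0.16 against 11.1, and the invariant chain CD74 5.4, 5.34 and 3.93 against 29.5 (difference -2.57). HLA-DRB1 and HLA-DMA reached 3.07 and 2.46 FPKM in the column. Over all 11 members the summed deposited level was 5.05 to 6.36 FPKM per library and 65.8 in the column. In the si-NEAT1_2 comparison CD74 was not separated, at -0.17, and 3 of 4 members were. Reads of HLA genes can be shared between near-identical copies and alleles. Of the class I genes, 17 of 18 passed and 1 was separated, MICB, a stress ligand, at 0.86, 0.8 and 0.97 FPKM against 6.54 (-2.77); this share is 5.88%, near the 8.82% of all genes.

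Interferon-stimulated genes split in both directions, with 25 of 30 passing, 4 separated with the libraries higher and 3 with the column higher. The adjacent genes IFIT2, IFIT3 and IFIT1, RNA-binding antiviral proteins on chromosome 10 (89283694 to 89406486), were all higher in the libraries. IFIT1 had 13.7, 16.2 and 18 FPKM against 2.33 (difference 2.73), IFIT3 15, 18.5 and 16.9 against 2.46 (2.72) and IFIT2 4.78, 4.77 and 4.99 against 0.589 (2.84). IFI27, a small mitochondrial protein, was higher in the column, at 2.86, 0.78 and 3.65 FPKM against 73.5 (-4.86), as were MX1, an antiviral GTPase, at 0.84 to 1.58 against 9.67 (-2.88) and the nuclease ISG20 at 0.2 to 1.14 against 8.87 (-3.51). MX1 and ISG20 were not separated in the si-NEAT1_2 comparison, at -0.66 and -2.49. Over the whole list the median difference was 0.33 and in the si-NEAT1_2 comparison 1.62, where 9 were separated with the libraries higher and 1 with the column higher. The letters TTTCNNTTT, taken from the interferon-stimulated response element, were found on either strand in 14 of the 19 promoter windows of this list. They were found in 6.97% of the windows of all genes that passed and in 10.6% of all promoters. This string, too, was 1 of the 13 searched after the values were seen. IFIT2 was not among the 14, and not every member that passed had a window. To show the element in IFIT1 and IFIT3, 1 stretch of each is given in the same way.
IFIT1 (chr10:89392496-89392525, plus strand): gctagctttagTTTCACTTTcccctttcgg
IFIT3 (chr10:89327864-89327893, plus strand): ttttaaattagTTTCACTTTccagtttcct
The members IFI27, MX1 and ISG20, which were higher in the column, held the same letters in their windows.

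Complement and innate receptor genes had 15 of 25 members passing, 3 separated with the libraries higher and 2 with the column higher. CLU (clusterin), a secreted chaperone, had 234, 152 and 193 FPKM against 3.15 (difference 5.90), and in the si-NEAT1_2 comparison 2.33. TLR4, the receptor for bacterial lipopolysaccharide, had 4.99, 7.81 and 4.82 against 0.845 (2.66), and was not separated in the si-NEAT1_2 comparison, at 1.96. SAA1, an acute phase protein nearly identical to SAA2, had 10.1, 9.13 and 10.3 against 0.0582. Of 14 immune ligands and checkpoint genes that passed, CD70 alone was separated. Over the 4 classes the share separated was 36.7% of 98 immune genes that passed, 33.3% of 90 matrix genes and 27.3% of 121 signalling genes, against 8.82% of all genes. The lists were chosen with earlier results of these data known, and some members passed the filter only through their higher side. Shares above that of all genes may follow from this choice and are descriptions only.

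Matrix genes were separated in both directions. Of 31 collagen genes 17 passed, with 5 separated as higher in the libraries and 4 as higher in the column. The 3 chains of type VI collagen, a microfibril of connective tissue, were all higher in the column. COL6A3 had 0.34, 0.38 and 0.41 FPKM in the libraries and 87.4 in the column (difference -7.52), COL6A2 15.6, 14.4 and 18.1 against 302 (-4.23) and COL6A1 8.75, 8.56 and 8.45 against 151 (-4.12). The transmembrane collagen COL13A1 was at 0.32 to 0.54 against 12.4 (-4.60). Other collagens were higher in the libraries. COL4A1 had 114, 110 and 97.7 FPKM in the libraries and 22.3 in the column (2.26), COL8A1 43.7, 41.2 and 37.5 against 2.91 (3.76), and COL18A1, the source of endostatin, 44.5, 42.4 and 47.6 against 4.86 (3.18). COL4A4 was at 7.35 to 9 FPKM against 0.0388, and COL27A1 at 6.45 to 9.68 against 1.05 (2.84; 1.49 and not separated in the si-NEAT1_2 comparison). COL4A2, paired head to head with COL4A1, had 157 to 160 against 75.2 (1.07) and was not separated. The laminin list held LAMA5, at 16.4, 15.2 and 15.6 FPKM in the libraries against 2.35 (2.69), and LAMA4 on the other side, at 0.03 to 0.08 against 5.42 (-5.20; -2.44 and not separated in the si-NEAT1_2 comparison).

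Among glycoproteins, THBS1 (thrombospondin), an adhesive protein that activates TGF-beta, had 326, 395 and 326 FPKM in the libraries and 1.55 in the column, a difference of 7.72, while its relative THBS2 had 0.08, 0.15 and 0.07 against 10.7 (-5.75). SPP1 (osteopontin) had 172, 154 and 147 against 2.64 (5.85). FN1, fibronectin, had 2110, 2246 and 2089 FPKM against 3407 (-0.67), not separated. THBS1 and THBS2 were thus on opposite sides in NC, with fibronectin abundant on both, but THBS2 was not separated in the si-NEAT1_2 comparison, at -2.49, where it missed the filter. LTBP1, which stores latent TGF-beta, was at 0.73 to 2.3 FPKM against 23.6 (-4.08) and EFEMP1, a fibulin, at 2.71 to 4.85 against 34.1 (-3.23, and -1.60 without separation in the si-NEAT1_2 comparison), while another fibulin, FBLN1, was at 7.9 to 9.51 against 1.85 (2.17). Of the proteoglycans, LUM (lumican) had 24.5, 25 and 22.6 FPKM against 0.5 (5.33) and VCAN (versican) 62, 85.5 and 62.8 against 9.68 (2.84), whereas SRGN (serglycin), a proteoglycan of secretory granules, had 10.9, 11.4 and 9.42 against 422 (-5.30). Of 20 integrin genes 14 passed, with 1 separated as higher in the libraries and 3 as higher in the column, at a median difference of -0.53 (-0.07 in the si-NEAT1_2 comparison). The 1 higher in the libraries was the laminin receptor subunit ITGA6, at 28, 35.1 and 27.2 against 5 (2.57).

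Proteases and their inhibitors had 19 of 28 members passing and 5 separated, all with the column higher. This was 26.3% of those passing, while over all genes 8.82% were separated and 5.78% had the column higher. MMP14, a membrane-bound collagenase, had 86.2, 79 and 88.7 FPKM in the libraries and 468 in the column (difference -2.46), PLAT, the tissue plasminogen activator, 3.4, 4.22 and 3.56 against 34.4 (-3.17), and the collagen crosslinking enzyme LOX 2.11, 2.56 and 2.46 against 13.2 (-2.43). TGM2, the crosslinking transglutaminase at the centre of the study, had 108, 99.7 and 90.4 FPKM in the NC libraries and 1173 in the NC column, a difference of -3.56. In the si-NEAT1_2 comparison its libraries had 96.7, 60.7 and 114 FPKM and the difference was -2.19, not separated. All libraries of both groups thus lay well below the NC column in this gene.

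Signalling genes showed no common direction, with 15 higher in the libraries and 18 in the column. Of the WNT pathway, the inhibitor DKK1 had 16.7, 17 and 14.2 FPKM in the libraries and 0 in the column, at least 145-fold higher, and the ligand WNT7A 7.21, 4.96 and 4.92 against 0, at least 117-fold higher. The co-receptor LRP5 had 16.9, 13.6 and 15.7 against 0.43 (difference 4.87). Another inhibitor of the pathway, SFRP1, was higher in the column, at 0.01, 0.05 and 0.04 FPKM against 40.2. DKK1 and SFRP1, both secreted inhibitors, were thus on opposite sides, among 4 separated genes of the 19 of this list that passed. LFNG, a glycosyltransferase that modifies Notch receptors, had 75.7, 71.2 and 79.8 FPKM against 0.597 (6.76).

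In the TGF-beta and BMP pathway, ID2, an inhibitor of helix-loop-helix factors induced by BMPs, had 97, 114 and 121 FPKM in the libraries and 1.94 in the column (difference 5.76), and the inhibitory SMAD7 31.7, 30.9 and 30.9 against 2.07 (3.85). The ligand BMP2 was higher in the column, at 0.49, 0.37 and 0.22 against 15.5 (-5.09), as was the BMP antagonist GREM1, at 0.83 to 1.63 against 9.93 (-3.02). These 4 genes were thus split between both sides. Growth factors higher in the libraries were EREG, a ligand of the EGF receptor, at 61.4, 92.8 and 72.6 against 6.89 (3.44), FGF1 at 39.3, 40.2 and 40.5 against 3.95 (3.31) and KITLG at 9.92, 16.8 and 10.4 against 1.12 (3.36). EREG and KITLG were not separated in the si-NEAT1_2 comparison, at 0.63 and 2.65. Higher in the column were HBEGF, another EGF receptor ligand, at 2.52, 2.04 and 2.48 against 36.6 (-3.91), VEGFA at 22.4, 25.3 and 24.6 against 159 (-2.71) and GAS6, the ligand of AXL, at 17.5 to 21.7 against 106 (-2.44). EPHB2, an ephrin receptor, was at 3.06 to 4.54 against 20.2 (-2.38). VEGFA and EPHB2 were not separated in the si-NEAT1_2 comparison, at -1.51 and -1.82.

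Outputs of the MAPK cascade leaned to the column, with a median difference of -1.69 over 19 of 20 genes, 5 of them separated and all 5 with the column higher (-1.75 and 7 of 18 in the si-NEAT1_2 comparison). The share separated was 26.3%, while over all genes 8.82% were separated and 5.78% had the column higher. The transcription factor ETV4 had 5.19, 4.21 and 4.37 FPKM against 82.5 (difference -4.14), and FOSL1, an AP-1 subunit, 131, 124 and 138 against 705 (-2.43). IER3, an early response gene, had 101, 97.7 and 110 against 514 (-2.32), the feedback inhibitor SPRY2 7.89, 8.71 and 10.1 against 50.4 (-2.49) and the phosphatase DUSP4 0.25, 0.13 and 0.21 against 2.16 (-2.93). In the si-NEAT1_2 comparison SPRY2 and DUSP4 were not separated, at -2.05 and -1.09. DUSP6, another phosphatase of the cascade, had 19.3, 22 and 19.6 against 21.2 (-0.07), inside the range, and MYC 90.9, 95.7 and 86.6 against 56.7 (0.68). Cell cycle inhibitors of the locus of CDKN2A were low in the column as a run of 3 neighbours on chromosome 9 (21802543 to 22009363). MTAP, a methionine salvage enzyme, had 19.4, 24.3 and 17 FPKM in the libraries and 0.00388 in the column, and CDKN2B 2.12, 3.41 and 1.75 against 0.00388; CDKN2B missed the filter in the si-NEAT1_2 comparison. The imprinted inhibitor CDKN1C was on the other side, at 0.62, 0.7 and 0.86 against 16.4 (-4.32), and was not separated in the si-NEAT1_2 comparison, at -0.70.

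**Figure D4:**
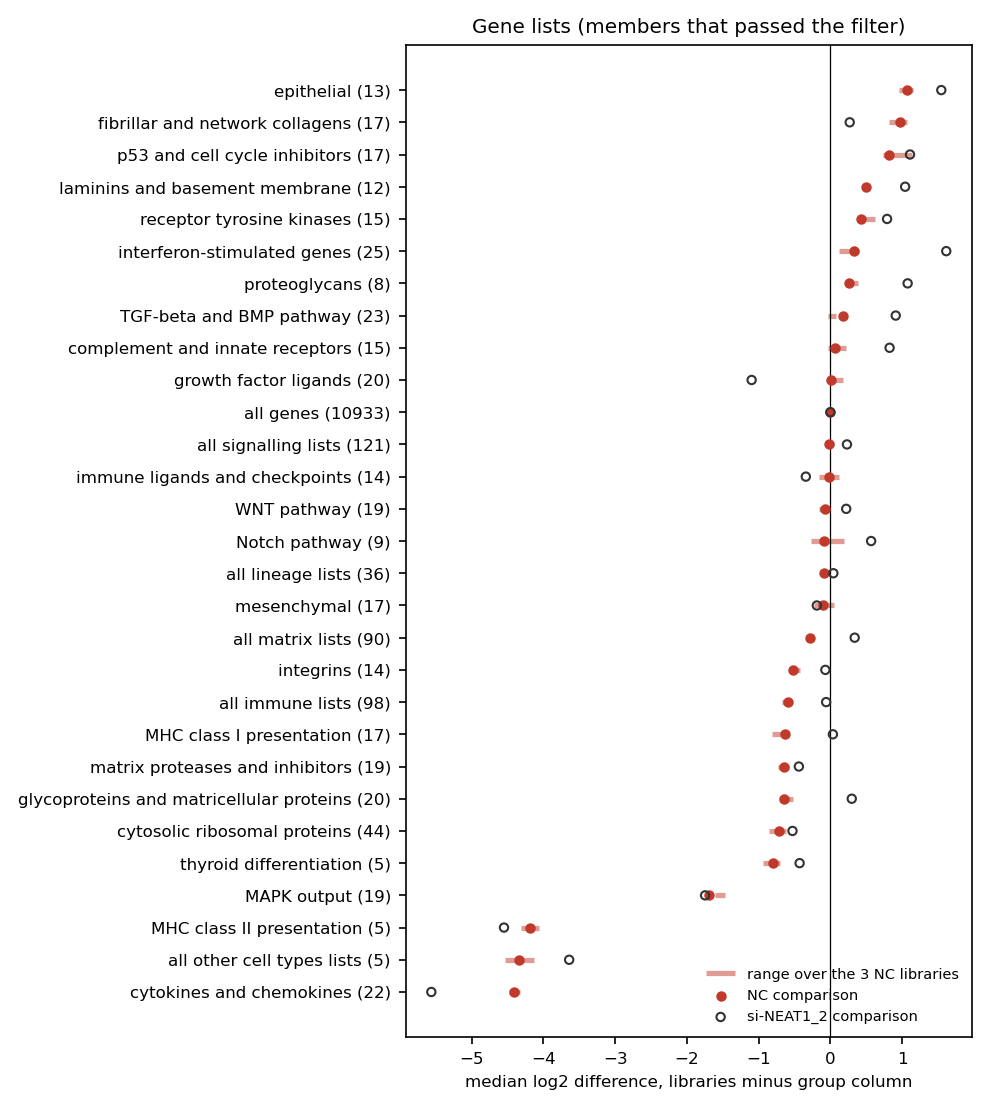
Median log2 difference (libraries minus column) of each gene list with at least 5 members passing, with the number passing in parentheses; filled points are the NC comparison, bars the range over the 3 single NC libraries and open points the si-NEAT1_2 comparison. Cytokines and chemokines (-4.41), class II molecules (-4.19, or -5.00 with values floored at 3 counts) and MAPK outputs (-1.69) lie furthest to the left of the lists with a single theme.

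Of genes used by every cell, the glycolytic enzyme GAPDH had 4949, 4272 and 5149 FPKM in the libraries and 8898 in the column (difference -0.89), and none of 44 cytosolic ribosomal protein genes was separated, with a median of -0.71; the median absolute difference of all genes was 0.634. One widely expressed gene named after its values were seen was far apart, EMC10, a subunit of a membrane insertion complex, at 0.17, 0.19 and 0.14 FPKM against 39.3 (-7.21).

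Position and sequence composition, which the rule did not use, moved with the difference. Genes higher in the column had a median transcript GC content of 56.9% and a median length of 2468 bases, against 48.5% and 3433 bases over all genes that passed and 50.6% and 3442.5 bases for genes higher in the libraries. Across 10933 genes the Spearman correlation of the difference with GC content was -0.34; single NC libraries against the others gave -0.37, 0.60 and -0.44, replicate 2 being opposite to the others. With the trend of GC content and length taken off (medians in 20 bins of each), 343 genes were higher in the libraries and 507 in the column. The part of composition in single genes was not tested.

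Along the chromosomes, blocks of 50 neighbouring genes had medians from -1.25 to 1.28 over 210 blocks, with a standard deviation of 0.393 between blocks, against 0.0754 to 0.136 for one NC library set against the others. Of these, 9 blocks were at or above 0.5 and 29 at or below -0.5, and all 38 had the same sign in the si-NEAT1_2 comparison. The highest lay on chromosome 18 (50266882 to 77133683, 1.28, and 1.24 in the si-NEAT1_2 comparison) and the lowest on chromosome 11 (64269830 to 65921561, -1.25 and -1.22). By chromosome the median was 0.79 on 18 and -0.58 on 19, which was the lowest. Without the GC and length trend 3 blocks were at or above 0.5 and 9 at or below -0.5, between -0.76 and 0.89. The lowest was then a block on chromosome 9 (14521 to 21995301) whose last gene was CDKN2A. The standard deviation between blocks was then 0.261, the block on chromosome 18 was at 0.89 and that on chromosome 11 at -0.42, while chromosome 18 was at 0.47 and chromosome 19 at 0.04. Chromosome 19 thus had next to no difference once the trend was removed, whereas chromosome 18 kept part of its own. Unlike these, some chromosomes moved further from 0. The median went from -0.28 to -0.37 on chromosome 14, from -0.08 to -0.29 on 4 and from -0.13 to -0.29 on 15.

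**Figure D5:**
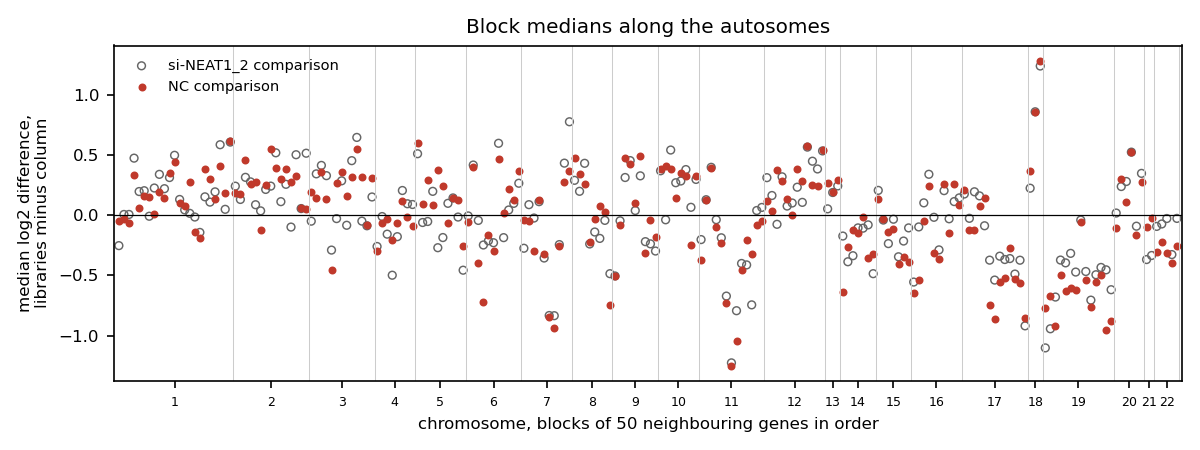
Median log2 difference (libraries minus column) of 210 blocks of 50 neighbouring genes that passed, in order along chromosomes 1 to 22, with the NC comparison as filled and the si-NEAT1_2 comparison as open points. Points of both comparisons follow each other, with the highest blocks on chromosome 18 and the lowest on chromosome 11.

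Runs of at least 3 consecutive separated genes occurred in 16 places. Beside the chemokine, IFIT and CDKN2A runs they included the metallothioneins MT1A, MT1F and MT1X on chromosome 16 and the bradykinin receptors BDKRB2 and BDKRB1 on chromosome 14, both with the column higher. MT1X, which binds zinc and copper, had 15.2, 16.2 and 14.6 FPKM in the libraries and 116 in the column (difference -2.91), and MT1F 0.48, 0.19 and 0.8 against 6.28; MT1F was not separated in the si-NEAT1_2 comparison. MT1A was at 0 in all libraries and 13.9 in the column, at least 46.9-fold higher there; metallothionein copies are nearly identical and their reads are uncertain. BDKRB1, the inducible receptor for bradykinin, had 0.03, 0.51 and 0.25 FPKM against 6.06, and BDKRB2 was at 0 to 0.03 against 16.6.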

How the data were processed

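Per the labels, 3 NC and 3 si-NEAT1_2 libraries of K1 cells were sequenced as mRNA. The submitters' processing notes name fastp 0.18.0, Bowtie2 2.2.8, HISAT2 and StringTie 1.3.1 with GRCh38, whereas the methods of the study name TopHat2 and RSEM; the annotation is not given in the sources used here. The deposited FPKM values were made by the authors per gene length and library size, and the deposited expected counts are estimates per gene that were used for depth, floors and CPM only. The group table gives the authors' value per group, with no error. Unmapped columns of single samples numbered 0.

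Positions, transcript lengths and GC content came from GENCODE release 29, in which all 19684 identifiers were found. Values were compared on log2(FPKM + 0.1) with Python 3.11.15, pandas 2.3.3 and numpy 2.4.6, and TMM factors came from edgeR 4.0.16 in R 4.3.3. No significance test was run; the separation rule was tested on simulated data. A fold against a side at 0 used a floor of 3 counts, covers counting error only, and for named genes no difference is given in the report where the column, or any library on the lower side, held 1 to 3 counts. Named genes were the 10 furthest apart in each direction with at least 10 FPKM on the higher side, up to 4 separated members per list and direction with at least 5 FPKM, and 14 genes named whatever their values; other genes named were chosen after their values were seen. The members and the 30 lists were chosen with earlier results of these data known. Alternatives concerned the pseudocount, filter, scaling, unit, fold, single libraries and the si-NEAT1_2 group. NEAT1 and some genes that this rule names are not reported here.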

Additional observations from a re-analysis of the deposited data

Results flagged for a closer look

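In 10 of the 964 separated genes every NC library differed from its column in one direction and every si-NEAT1_2 library from its column in the other, a difference that was not tested. The log2 differences (libraries minus column) in NC were -2.19 for PHGDH, -2.30 for PCK2, -4.57 for AGR2, -2.15 for MVK, -2.36 for ABHD14B, -2.17 for MLPH, -2.61 for ARTN, 2.81 for TRPM2, -2.64 for TMEM71 and -2.35 for ACSF2. In the si-NEAT1_2 comparison they were 0.93, 0.36, 0.22, 2.30, 0.70, 0.78, 1.5, -0.49, 1.25 and 0.60 in the same order. PHGDH, the first enzyme of serine synthesis, and PCK2, the mitochondrial phosphoenolpyruvate carboxykinase, were among them.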

How the results depend on the processing

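No paired analysis was possible because the results come from no test and the group column carries no replicates. With the libraries higher and the column higher, in that order, the counts of separated genes (332 and 632) were 194 and 456 with a pseudocount of 1, 477 and 804 without a filter on low values, 184 and 366 with a minimum of 5 FPKM, 641 and 336 with ribosomal protein genes set to 0, 458 and 795 in CPM, 1035 and 1726 at 2-fold and 177 and 337 at 8-fold. They were within 1.5 times with the other alternatives. Leaving out 1 NC library gave 349 to 364 and 640 to 698. Chosen after seeing the data were values floored at 3 counts (359 and 655) and the GC and length trend removed (343 and 507).

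Of 98 named separated genes, 83 to 98 kept their call under each alternative of pseudocount, filter, scaling and unit, 79 in the si-NEAT1_2 comparison, 70 at 8-fold and 89 with the GC and length trend removed. Medians of 28 lists differed in sign from the reported value in 36 of 444 recomputed values, of which 19 (-1.10 to 0.70) belonged to the mesenchymal, complement, immune ligand, growth factor and Notch lists, whose sign already differed between single NC libraries. The other 17 follow. Without a filter they were 0.0890 for thyroid genes, 0.20 for blood and 0.44 for endothelial markers. With ribosomal protein genes set to 0 they were 0.0626 for glycoproteins, 0.39 for integrins, 0.12 for proteases, 0.0714 for class I and 0.61 for WNT genes. In the si-NEAT1_2 comparison they were 0.30 for glycoproteins, 0.0352 for class I and 0.22 for WNT genes, and KRT15 was at 0.15. A minimum of 5 FPKM gave 0.59 for integrins, -0.00609 for interferon-stimulated genes and -0.0196 for receptor tyrosine kinases. The WNT median was also 0.13 as deposited, between -0.149 and 0.000158 with 1 NC library left out (the latter without NC replicate 2) and 0.27 with the trend removed. The causes were not tested. The precision of single values near 0 is limited by depth, and 88 of the 332 and 79 of the 632 separated genes had at most 3 counts on one side.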

Other observations

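The 13 mitochondrial genes, left out of the comparison by chromosome, had a median difference of 0.69 (libraries minus column, from -0.29 to 1.72), and 12 of them were above 0. In 5 genes all 6 libraries had at least 5 FPKM while both deposited columns were at 0, namely GFRA1 (71.7 to 88.2 FPKM over the libraries), KCNIP1 (27.3 to 37.2), a modulator of potassium channels, TMEM40 (9.45 to 16.9), RASAL1 (7 to 11), a Ras GTPase-activating protein, and CLEC4E (8.05 to 14.1), a lectin receptor. The reverse, 0 in all 6 libraries with at least 5 FPKM in both columns, was found for 0 genes.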
